A study of Oryza sativa with 6 samples.

Results

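Cyclins, cyclin-dependent kinases (CDKs) and their inhibitors were examined in filling rice (Oryza sativa) seeds of a pair of near-isogenic lines. The members were the features of the deposited table whose description contains the word cyclin, 49 of 91080. Of these, 48 name a cyclin, a CDK, a CDK subunit or a CDK inhibitor. The remaining one is a chloroplast ribosome-recycling factor, matched through the letters of "recycling", and it is left out below. RNA came from developing seeds at 15 DAF, from NIL-gaf1, labelled mutant (3 libraries), and NIL-GAF1, labelled wild type (3 libraries), all grown in a paddy field. Such lines are bred to be alike over most of the genome, and the labels do not give the position at which this pair differs. The titles carry the symbols gif2 for the mutant and GIF2 for the wild type. No label says that the 3 libraries of a line are from different plants, so the spread on which the p-values rest is that between these samples and may be technical. Cyclins and CDKs without such a description were not analysed here. Coordinates are those of the deposited table, whose genome build is not given in the sources used here.

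Most CDKs act as kinases only when a cyclin is bound to them. D-type cyclins with CDKA drive cells out of G1 by phosphorylating retinoblastoma-related protein, A-type cyclins act from S phase to mitosis, and B-type cyclins with the plant-specific CDKB kinases act at the entry into mitosis. The inhibitors (KRP and the SIAMESE-related proteins) bind and block these complexes and are known for roles in endoreduplication, in which DNA is copied without division. Other cyclins and CDKs act on transcription and RNA processing. The rice endosperm first multiplies its nuclei and cells and later stops dividing, endoreduplicates and fills with starch and storage protein.

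Libraries held 17236796 to 25402680 counts. Values of 3 libraries stand in the order of libraries 1, 2 and 3 throughout. The 18 storage protein features took 0.403%, 7.11% and 21.3% of the counts in mutant seeds, against 36.0%, 42.3% and 38.3% in wild-type seeds, and 1 to 3 of them were at 0 in a library. Of the 16 tested, 3 fell and none rose, against 15.4% of all tested features called lower. With total-count scaling 6 were called lower, against 3.76% of all tested features. In these shares the mutant libraries stood apart from each other as well as from wild type. Of the 8 embryo and aleurone markers (oleosins, dehydrins and late embryogenesis proteins), 7 fell and none rose, against the same 15.4%. With total-count scaling 5 of them were called lower, against the same 3.76%. Together they took 0.055% to 0.168% of mutant counts and 0.194% to 0.25% of wild-type counts. None of the 4 chlorophyll-binding genes of green pericarp passed the test. All 4 were called higher with total-count scaling, as were 71.9% of all tested features. They took 0.0713% to 0.22% of mutant counts and 0.0475% to 0.0703% of wild-type counts. No embryo, aleurone or pericarp marker was at 0 in any library. In whole seeds, fewer cells of a type and less RNA per cell cannot be told apart. Levels are in normalized CPM (the count as a share of the library total, with that total scaled by the TMM method so that the bulk of features is level between libraries), unless given per length. Log2 fold changes are mutant over wild type.

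B-type cyclins, CDKB kinases, CDKA-2 and 3 D-type cyclins were higher in the mutant, while several CDKs of other classes and 3 CDK inhibitors were lower relative to the typical feature. The A-type cyclins did not pass the test. Of the 48, 40 had enough counts for the test, and 9 of these 40 were called higher (22.5%) and 11 lower (27.5%) with a threshold of 0.05 on the adjusted p value (quasi-likelihood test of edgeR, adjusted by Benjamini-Hochberg across every feature). Over all 22937 tested features, 15.8% were called higher and 15.4% lower, 31.2% in all. The 9 higher were both B-type cyclins, both CDKB kinases, CDKA-2, 3 D-type cyclins and CYCP4-1. The 11 lower were CYCP2-1, CYCT1-1, SDS, 5 CDKs of classes C, E, F and G, and 3 inhibitors. The zero point depended on the scaling: all tested features had a median log2 fold change of 0.06 under TMM and of 1.27 when totals were used. When libraries were scaled by total counts, all 9 members called higher were still called higher, and of the 11 called lower CYCP2-1 alone was still lower. Of the other 10, 4 were then called higher. With that scaling 71.9% of all features were called higher and 3.76% lower, and of the 40 members 28 were called higher and 1 lower. When 21 storage and seed allergen features were removed before scaling to the total, 43.9% of all features were called higher and 6.96% lower. Of the 40 members, 15 were then called higher, the 9 included, and 4 lower, namely CYCP2-1, EL2, SDS and CDKG-2.

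**Figure D1:**
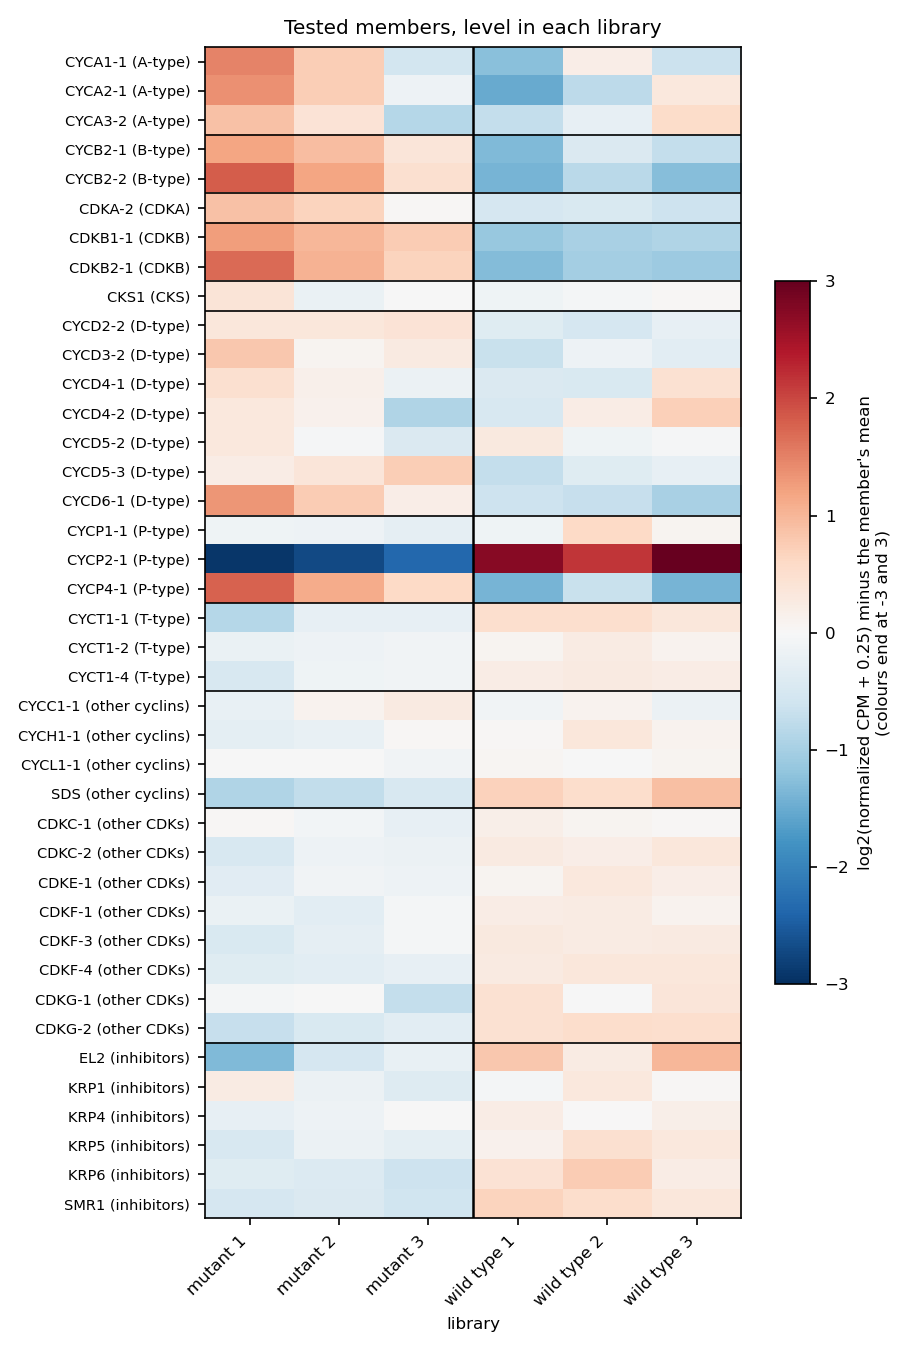
Level of each of the 40 tested members (rows, with the class in brackets) in each library (columns, mutant left of wild type). The colour is log2(normalized CPM + 0.25) minus the mean of the row, red above and blue below, and it ends at -3 and 3. B-type cyclins and CDKB are red in all 3 mutant libraries and blue in all 3 wild-type libraries, deepest red in mutant library 1, and CYCP2-1 is the reverse.

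The B-type cyclins, which activate mitotic CDK, both rose. CYCB2-1 (OS04G0563700, chromosome 4, 28218760 to 28221536) had normalized CPM of 9.41, 7.84 and 5.21 in mutant seeds, against 1.46, 2.92 and 2.33 in wild-type seeds. The rise was 3.35-fold (log2 fold change 1.74, SE 0.32, edgeR adjusted p = 0.0059). The groups did not overlap, and the lowest mutant value was that of library 3. CYCB2-2 (OS06G0726800, chromosome 6, 30915125 to 30918862) was at 8.81, 5.64 and 3.34 in mutant seeds, against 0.731, 1.22 and 0.821 in wild-type seeds. It rose 6.44-fold (log2 fold change 2.69, SE 0.43, edgeR adjusted p = 0.0033). Again no mutant library came down to the wild-type range, and mutant library 1 was highest.

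The CDKB kinases, whose transcripts are known to peak around G2 and mitosis, both rose as well. CDKB1-1 (OS01G0897000, chromosome 1, 38981299 to 38984176) had normalized CPM of 25.7, 21.2 and 18.0 in mutant seeds, against 4.71, 5.27 and 5.54 in wild-type seeds. It rose 4.18-fold (log2 fold change 2.06, SE 0.18, edgeR adjusted p = 0.00037). Its wild-type libraries lay close together, and every mutant library was more than 3 times the highest of them. CDKB2-1 (OS08G0512600, chromosome 8, 25419884 to 25421722) was at 23.5, 14.7 and 11.3 in mutant seeds, against 2.68, 3.32 and 3.15 in wild-type seeds. It rose 5.41-fold (log2 fold change 2.43, SE 0.30, edgeR adjusted p = 0.0011). Mutant library 1 was again the highest, and the groups did not overlap. For CDKB1-1 and CDKB2-1 the call held with any one library left out, with log2 fold changes of 1.93 to 2.15 and 2.10 to 2.62.

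None of the 3 A-type cyclins passed the test, and their mutant libraries were widely spread. CYCA3-2, the most abundant of the 3 per length (OS12G0581800, chromosome 12, 24142655 to 24144843), had normalized CPM of 2.96, 2.07 and 0.715 in mutant seeds, against 0.812, 1.22 and 2.33 in wild-type seeds. The groups overlapped, with mutant library 3 below all wild-type libraries (log2 fold change 0.39, SE 0.58, edgeR adjusted p = 0.64). CYCA1-1 had a log2 fold change of 1.44 (SE 0.67, edgeR adjusted p = 0.14) and CYCA2-1 one of 1.46 (SE 0.66, edgeR adjusted p = 0.13). CYCA1-1 passed without mutant library 3 (log2 fold change 1.81, edgeR adjusted p = 0.028), the library with the largest storage protein share of the mutant (21.3%), whose part in this was not tested. With one library left out CYCA1-1 ranged from 0.83 (without mutant library 1, edgeR adjusted p = 0.37) to 2.04, and CYCA2-1 from 0.99 to 2.40 without passing. In total-count scaling the 3 were called higher, at 2.80 for CYCA1-1, 2.79 for CYCA2-1 and 1.73 for CYCA3-2. With that scaling 71.9% of all features were called higher. The median log2 fold change over the 7 A-type, B-type and CDKB members was 1.74, against 0.06 over all features.

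CDKA-2, one of the kinases that carry the core PSTAIRE-type cell cycle activity, rose. It (OS02G0123100, chromosome 2, 1207635 to 1211101) had normalized CPM of 6.33, 5.40 and 3.41 in mutant seeds, against 2.27, 2.35 and 2.05 in wild-type seeds. The groups did not overlap (a 2.27-fold rise, log2 fold change 1.18, SE 0.29, edgeR adjusted p = 0.017). The fold change was smaller than for either CDKB kinase, a difference that was not tested. The call was lost without mutant library 2 (edgeR adjusted p = 0.068), wild-type library 1 (0.056) or wild-type library 3 (0.06). CKS1, a small docking subunit of CDK complexes (OS03G0146300, chromosome 3, 2571794 to 2572787), was at 9.74, 6.33 and 7.29 in mutant seeds, against 6.66, 7.05 and 7.53 in wild-type seeds. The groups overlapped, and the test was not passed (log2 fold change 0.14, SE 0.21, edgeR adjusted p = 0.65; 1.38 and called higher with total-count scaling).

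Among D-type cyclins, which link growth signals to the exit from G1, 7 of 10 were tested, of which 3 rose and 4 did not pass, against 15.8% of all features called higher, with a median log2 fold change of 0.75. CYCD5-3, the most abundant D-type cyclin (OS03G0203800, chromosome 3, 5441845 to 5444188), had normalized CPM of 45.1, 49.2 and 64.3 in mutant seeds, against 23.4, 29.6 and 32.2 in wild-type seeds. It rose 1.86-fold (log2 fold change 0.90, SE 0.19, edgeR adjusted p = 0.0091). In normalized CPM mutant library 3 was the highest and library 1 the lowest of the mutant, the reverse of the order in B-type cyclins and CDKB. That order rests on the TMM factors, which were 1.88, 1.57 and 1.16 in the mutant libraries. As a share of library totals, mutant library 1 was the highest for CYCD5-3 too. CYCD2-2 (OS07G0620800, chromosome 7, 25662908 to 25665316) was at 10.7, 10.6 and 11.3 in mutant seeds, against 6.49, 5.84 and 7.05 in wild-type seeds. With TMM scaling the mutant values were nearly alike and all above wild type (a 1.69-fold rise, log2 fold change 0.75, SE 0.16, edgeR adjusted p = 0.010).

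CYCD6-1, whose Arabidopsis relative is known for formative divisions in the root (OS07G0556000, chromosome 7, 22169522 to 22171723), had normalized CPM of 6.38, 4.24 and 2.79 in mutant seeds, against 1.46, 1.38 and 1.09 in wild-type seeds. It rose 3.42-fold (log2 fold change 1.77, SE 0.37, edgeR adjusted p = 0.0090). As in B-type cyclins, mutant library 1 was highest, and the groups did not overlap. The D-type cyclins that did not pass were CYCD3-2 (log2 fold change 1.09, SE 0.46), CYCD4-1 (0.27, SE 0.31), CYCD4-2 (-0.34, SE 0.50) and CYCD5-2 (-0.07, SE 0.37), with edgeR adjusted p of 0.11 to 0.91. CYCD3-2 was the one of these whose groups did not overlap, at 0.715 to 1.36 in the mutant and 0.325 to 0.567 in wild type. The mutant lay above without overlap in 25.3% of all tested features. CYCD3-2 had only 4, 7 and 7 counts in wild-type seeds and passed the filter on low counts through the mutant. CYCD4-2 and CYCD5-2 were above 0 with total-count scaling, at 0.97 and 1.19.

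**Figure D2:**
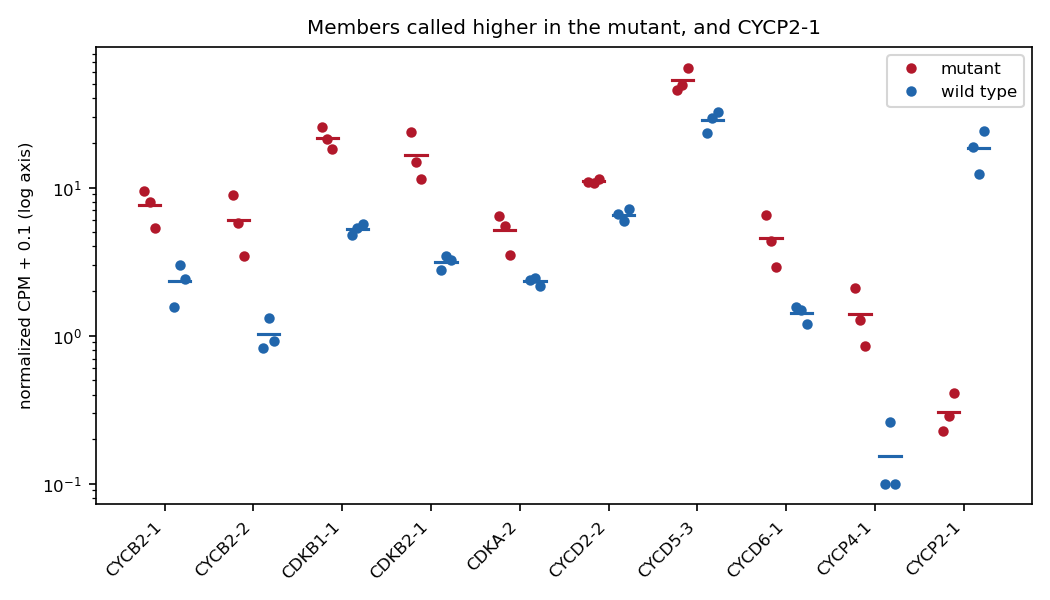
Normalized CPM + 0.1 on a log axis for the 9 members called higher in the mutant and for CYCP2-1, called lower. Points are libraries, 3 per line with mutant left of wild type, and bars are means. For each of these members the mutant and wild-type libraries are separate, and CYCP2-1 is the one in which the mutant lies below.

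P-type cyclins, also called U-type, resemble yeast cyclins of phosphate signalling, and of the 3 members 1 rose, 1 fell and 1 did not pass. CYCP2-1 (OS04G0552300, chromosome 4, 27661549 to 27662832) had 5, 7 and 9 counts in mutant seeds, against 229, 152 and 352 in wild-type seeds. In normalized CPM these were 0.126, 0.185 and 0.307 in the mutant, against 18.6, 12.3 and 24.1 in wild type. Every mutant library was thus far below every wild-type library, though none was at 0. The log2 fold change was -6.49 (SE 0.39, edgeR adjusted p = 0.00013), -5.34 with total-count scaling, and -6.87 to -6.22 with one library left out. Per length, CYCP2-1 was 42nd of the 48 members in the mutant, at 0.16 ± 0.0718 TMM-scaled FPKM (the deposited FPKM divided by the TMM factor; SD, n = 3), and 14th in wild type, at 14.3 ± 4.58 (SD, n = 3).

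CYCP4-1 (OS10G0563900, chromosome 10, 22268600 to 22270503) showed the reverse. It had 79, 44 and 22 counts in mutant seeds, against 0, 2 and 0 in wild-type seeds. It was seen in every mutant library and in 1 wild-type library. The ratio of normalized counts was 26.6, with a 95% interval of 7.24 to 222 that covers counting error only (145 counts in the mutant, 2 in wild type), and the edgeR adjusted p was 0.0084. Without wild-type library 2 the wild type has no count of CYCP4-1, and with each remaining wild-type library set to 3 counts the mutant was at least 5.79-fold higher. CYCP1-1 was at 0.728, 0.715 and 0.647 in mutant seeds, against 0.731, 1.38 and 0.889 in wild-type seeds. The ranges were barely separate, and the test was not passed (log2 fold change -0.51, SE 0.39, edgeR adjusted p = 0.35; 0.71 with total-count scaling). CYCP4-1 passed the filter on low counts through the mutant and CYCP2-1 through wild type, so the counts of calls over tested members are descriptions.

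None of the cyclins and CDKs linked to transcription rose relative to the typical feature and 4 of 11 fell, against 15.4% of all features called lower, while all 11 had a log2 fold change above 0 with total-count scaling. CYCT and CDKC form a kinase that phosphorylates RNA polymerase II, CYCC and CDKE belong to the Mediator complex, CYCH to the CDK-activating kinase, and CYCL and CDKG are tied to splicing in Arabidopsis. The other 7 did not pass. The 11 had a median log2 fold change of -0.40 (0.80 with total-count scaling). With that scaling 8 were called higher and none lower, near the shares over all features, 71.9% higher and 3.76% lower. In 7 of the 11 the mutant libraries lay below wild type without overlap, which held for 23.8% of all tested features (25.3% the other way).

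CYCT1-1 (OS02G0133000, chromosome 2, 1734447 to 1737461) had normalized CPM of 19.6, 29.7 and 30.0 in mutant seeds, against 50.3, 50.0 and 45.2 in wild-type seeds. It fell 1.84-fold (log2 fold change -0.88, SE 0.18, edgeR adjusted p = 0.0096, and 0.29 with total-count scaling). Mutant library 1 was lowest with TMM scaling, and mutant library 3 as a share of library totals. CYCT1-4, the most abundant T-type cyclin per length over all 6 libraries though level with CYCT1-1 in wild type (OS12G0485400, chromosome 12, 17955781 to 17964284), was at 56.8, 72.6 and 73.5 in mutant seeds, against 91.5, 95.6 and 91.5 in wild-type seeds. The groups did not overlap, yet the test was not passed (log2 fold change -0.46, SE 0.15, edgeR adjusted p = 0.053; 0.73 and called higher with total-count scaling). Without mutant library 3 it was called lower (edgeR adjusted p = 0.036). CYCT1-2 did not pass either (-0.30, SE 0.12, edgeR adjusted p = 0.086; 0.90 with total-count scaling).

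CDKC-2 (OS01G0958000, chromosome 1, 42229585 to 42232625) had normalized CPM of 65.8, 83.3 and 81.8 in mutant seeds, against 112, 106 and 118 in wild-type seeds. It fell 1.45-fold (log2 fold change -0.54, SE 0.16, edgeR adjusted p = 0.032) and was called higher with total-count scaling (0.65). CDKE-1 (OS10G0580300, chromosome 10, 23148893 to 23153234) was at 29.2, 34.2 and 33.3 in mutant seeds, against 39.1, 46.3 and 42.6 in wild-type seeds. Its log2 fold change of -0.40 (SE 0.13) was just inside the threshold (edgeR adjusted p = 0.0498) and it too was called higher with total-count scaling (0.80). The calls of both were lost when any one library other than mutant library 3 was left out. The paralog CDKC-1 did not pass and its groups overlapped narrowly, at 16.7 to 20.4 in the mutant and 20.1 to 22.4 in wild type (log2 fold change -0.19, SE 0.14; 1.04 with total-count scaling).

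CDKG-2 (OS04G0488000, chromosome 4, 24371795 to 24377651) had normalized CPM of 81.8, 95.8 and 106 in mutant seeds, against 182, 191 and 187 in wild-type seeds. It fell 1.98-fold (log2 fold change -0.99, SE 0.16, edgeR adjusted p = 0.0038), and with total-count scaling the value was 0.20 and did not pass. Every mutant library was well below every wild-type library, and it was still called lower by totals once storage features were removed (log2 fold change -0.39, edgeR adjusted p = 0.046). CDKG-1 overlapped, at 70.7, 73.1 and 44.4 in mutant seeds, against 101, 72.9 and 94.3 in wild-type seeds (log2 fold change -0.51, SE 0.23, edgeR adjusted p = 0.12; 0.74 with total-count scaling). CYCC1-1, the partner of CDKE in the Mediator complex (OS09G0504400, chromosome 9, 19498962 to 19503132), was at 52.4, 65.8 and 73.8 in mutant seeds, against 56.3, 65.5 and 53.4 in wild-type seeds. Its groups overlapped (log2 fold change 0.13, SE 0.17, edgeR adjusted p = 0.58). CYCL1-1 (-0.09, SE 0.12) and CYCH1-1 (-0.33, SE 0.17) did not pass, and with total-count scaling they were at 1.13 and 0.86.

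The CDKF class, whose founding Arabidopsis member activates other CDKs by phosphorylation, was lower relative to the typical feature in 2 of 3 tested members. Over all features 15.4% were called lower. All 3 were called higher with total-count scaling, as were 71.9% of all features. CDKF-4 (OS02G0700600, chromosome 2, 28820864 to 28826606) had normalized CPM of 67.8, 70.5 and 73.0 in mutant seeds, against 105, 110 and 110 in wild-type seeds (log2 fold change -0.62, SE 0.13, edgeR adjusted p = 0.010; 0.58 with total-count scaling). CDKF-3 (OS03G0847600, chromosome 3, 35633667 to 35638698) was at 49.6, 56.3 and 65.2 in mutant seeds, against 82.9, 80.2 and 82.6 in wild-type seeds (log2 fold change -0.52, SE 0.15, edgeR adjusted p = 0.030; 0.66 with total-count scaling). In both the groups did not overlap, and the wild-type libraries lay close together. The call of CDKF-4 was lost without mutant library 2 (edgeR adjusted p = 0.059), and that of CDKF-3 when any one library other than mutant library 3 was left out (0.058 to 0.11). CDKF-1 did not pass (-0.38, SE 0.13, edgeR adjusted p = 0.056; 0.82 with total-count scaling), but was called lower without mutant library 3 (edgeR adjusted p = 0.029).

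SDS, described as SDS-like and related to an Arabidopsis cyclin of meiotic recombination (OS03G0225200, chromosome 3, 6556389 to 6562025), was low in both lines and lower in the mutant. It had normalized CPM of 1.08, 1.25 and 1.53 in mutant seeds, against 3.73, 3.32 and 4.38 in wild-type seeds. It fell 2.97-fold (log2 fold change -1.57, SE 0.28, edgeR adjusted p = 0.0048). The groups did not overlap, and the log2 fold change with total-count scaling was -0.40 and did not pass.

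**Figure D3:**
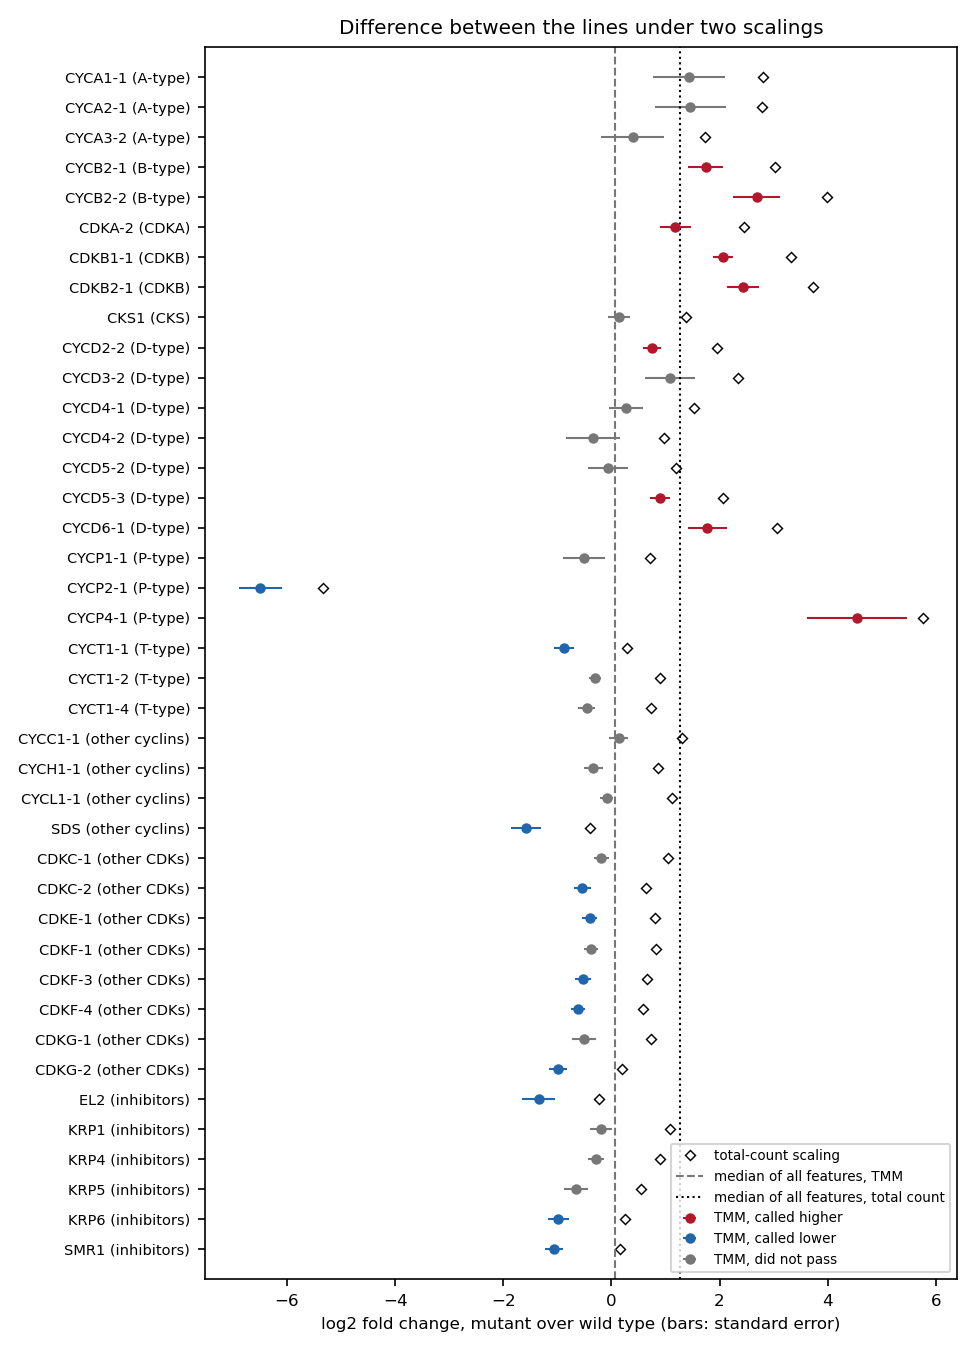
Log2 fold change, mutant over wild type, for each of the 40 tested members (rows, with the class in brackets). Filled points with standard error bars use TMM scaling, coloured red where called higher, blue where called lower and grey where the test was not passed, and open diamonds use total-count scaling. The dashed line at 0.06 and the dotted line at 1.27 are the medians of all tested features with each scaling. B-type cyclins and CDKB lie right of both medians with either scaling, and all but CYCP2-1, SDS and EL2 are above 0 with total-count scaling.

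Of 6 tested CDK inhibitors 3 were called lower relative to the typical feature and none higher, against 15.4% lower and 15.8% higher over all features, with a median log2 fold change of -0.82 (0.40 with total-count scaling, when 2 were called higher and none lower). EL2, a SIAMESE-related inhibitor first known in rice as an elicitor-responsive gene (OS03G0107700, chromosome 3, 470350 to 471075), had normalized CPM of 13.6, 24.2 and 29.6 in mutant seeds, against 60.8, 40.9 and 68.7 in wild-type seeds. It fell 2.53-fold (log2 fold change -1.34, SE 0.30, edgeR adjusted p = 0.013), with -0.22 and no call in total-count scaling. Mutant library 1, in which CDKB and B-type cyclins were highest, had the lowest EL2 level. SMR1, of the same family (OS10G0546400, chromosome 10, 21360059 to 21360924), was at 5.70, 5.96 and 5.28 in mutant seeds, against 13.1, 11.8 and 10.4 in wild-type seeds. With TMM scaling its mutant values were close together and all below wild type (a 2.08-fold fall, log2 fold change -1.06, SE 0.17, edgeR adjusted p = 0.0032, and 0.16 with total-count scaling).

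Among KRP inhibitors, which bind D-type cyclin and CDKA complexes, 1 of 4 tested fell, a count too small to set apart from the 15.4% of all features called lower. KRP6 (OS09G0459900, chromosome 9, 17390977 to 17392630) had normalized CPM of 6.0, 5.77 and 4.94 in mutant seeds, against 10.6, 13.3 and 9.17 in wild-type seeds. It was 1.97-fold lower without overlap (log2 fold change -0.98, SE 0.20, edgeR adjusted p = 0.0080; 0.26 with total-count scaling). KRP5 was also lower in every mutant library, at 2.81 to 3.52 in the mutant and 4.38 to 5.67 in wild type, but did not pass (-0.65, SE 0.22, edgeR adjusted p = 0.052; 0.55 with total-count scaling). KRP1, the most abundant KRP, overlapped, at 12.6 to 19.8 in the mutant and 15.7 to 20.7 in wild type (-0.19, SE 0.20, edgeR adjusted p = 0.51; 1.08 with total-count scaling). KRP4 did not pass (-0.29, SE 0.15, edgeR adjusted p = 0.19; 0.90 with total-count scaling).

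Per length, the order of members differed between the lines. In TMM-scaled FPKM the first 4 in the mutant were CYCC1-1 at 51.6 ± 8.76, CDKC-2 at 38.7 ± 4.89, EL2 at 30.9 ± 11.2 and CYCD5-3 at 28.1 ± 5.38 (SD, n = 3 each). EL2 lay within its SD of both CDKC-2 and CYCD5-3 there, and CYCC1-1 stood above CDKC-2 by more than either SD. The first 3 in wild type were EL2 at 78.2 ± 19.7, CDKC-2 at 56.3 ± 3.0 and CYCC1-1 at 47.1 ± 5.11 (SD, n = 3 each), of which EL2 and CDKC-2 overlapped between libraries. CDKB1-1 was 10th in the mutant at 17.2 ± 3.04 and 24th in wild type at 4.12 ± 0.338 (SD, n = 3 each). CDKB2-1 was 14th at 13.5 ± 5.11 in the mutant and 26th at 2.5 ± 0.272 in wild type (SD, n = 3 each), and CYCD5-3 was 4th in the mutant and 13th in wild type. For CDKA-2, CDKG-1 and CDKG-2 the length implied by count and FPKM (3538, 3927 and 7611 bases) was longer than the span of their coordinates (3467, 3657 and 5857 bases), so their levels per length are uncertain.

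The balance of mitotic to transcription-linked members can be read within each library, where no scaling between libraries enters. The mitotic set holds 4 members called higher above and the transcription-linked set 4 called lower. The direction of the ratio thus follows from those calls, and the ratio is a description rather than further support. CDKB1-1 and CDKB2-1 made up most of the mitotic sum. The summed FPKM of the 7 A-type, B-type and CDKB members over that of the 11 transcription-linked members was 0.286, 0.173 and 0.129 in mutant seeds, against 0.0278, 0.038 and 0.0399 in wild-type seeds. The ratio averaged 0.196 ± 0.0809 in the mutant and 0.0352 ± 0.00651 in wild type (SD, n = 3 each), 5.55 times as high in the mutant and 4.28 to 6.5 times with one library left out. The lowest mutant library was above all wild-type libraries. The mutant library with the highest ratio, library 1, had the lowest storage protein share (0.403%) and the lowest embryo and aleurone share (0.055%), and library 3, with the lowest ratio, had the highest of both (21.3% and 0.168%). Whether these shares have a part in the ratio was not tested. Against the same transcription-linked sum, the KRP sum averaged 0.112 ± 0.0239 in the mutant and 0.111 ± 0.0106 in wild type (SD, n = 3 each). EL2 was at 0.0953, 0.142 and 0.175 of that sum in mutant seeds, against 0.288, 0.191 and 0.329 in wild-type seeds, without overlap.

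**Figure D4:**
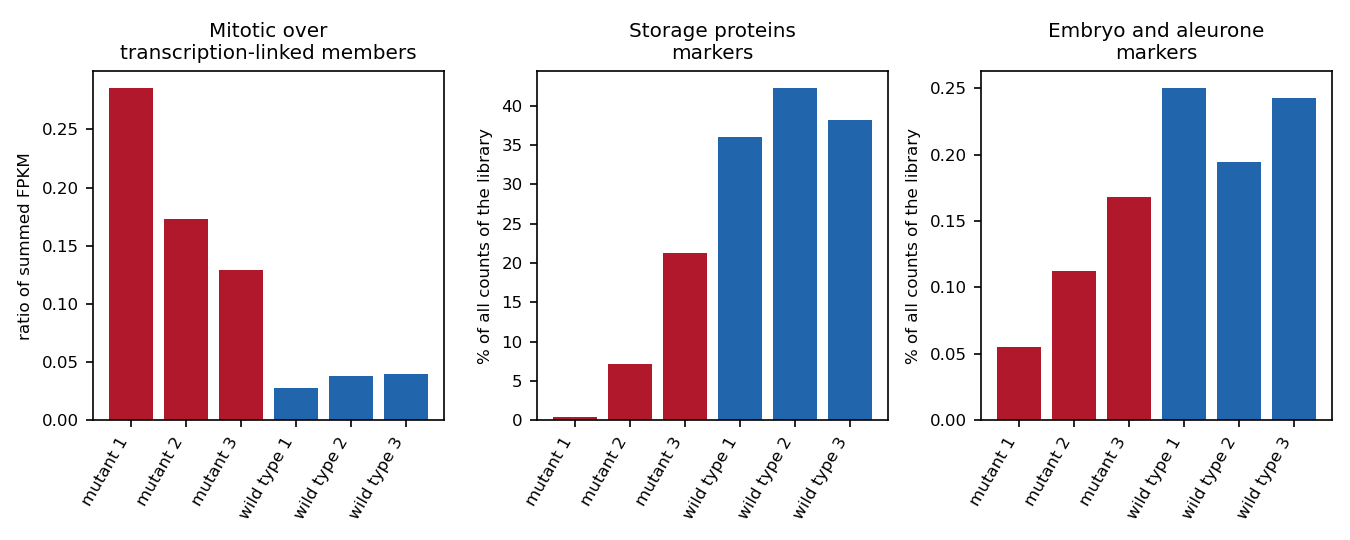
Left, summed FPKM of the 7 A-type, B-type and CDKB members divided by that of the 11 transcription-linked members in each library. Middle and right, the percentage of all counts in storage protein features and in embryo and aleurone markers, with mutant libraries left of wild type in each panel. The ratio is 0.129 to 0.286 in the mutant and 0.0278 to 0.0399 in wild type, and the mutant library with the highest ratio has the lowest share of both marker lists.

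The other 8 members were too low for the test. CYCD7-1, CYCF1-4 and CYCF2-1 had no counts in any library, CDKF-2 had 1, CYCD1-1 had 2 and CYCF2-2 had 4, all in the mutant. A count of 0, taken to allow up to 3 counts in a library, allows 0.0753 to 0.102 normalized CPM in the mutant and 0.205 to 0.244 in wild type. KRP2 had 7, 9 and 0 counts in mutant seeds and none in wild type, and CYCD2-1 had 11, 13 and 8 in mutant seeds, against 3, 7 and 3 in wild-type seeds. In normalized CPM CYCD2-1 overlapped, at 0.273 to 0.344 in the mutant and 0.205 to 0.567 in wild type. The 3 CYCF members lie near each other on chromosome 2, CYCF1-4 at 23699960 to 23701630, CYCF2-2 at 23710890 to 23712446 and CYCF2-1 at 23784761 to 23785933, and had 4 counts between them over all 6 libraries. Reads may be shared between paralogs alike in sequence, which was not measured.

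Partners of these kinases outside the family were read from the same fit. Among 14 other described cell cycle regulators, 3 rose, 1 fell and 10 did not pass, with a median log2 fold change of 0.26. These counts lie near the shares over all features, 15.8% called higher and 15.4% lower, so only the single genes are described. RBR1, a retinoblastoma-related protein that restrains the G1 exit and a substrate of D-type cyclin kinases, had normalized CPM of 5.67, 6.09 and 6.20 in mutant seeds, against 14.3, 12.6 and 18.9 in wild-type seeds. It fell 2.55-fold (log2 fold change -1.35, SE 0.19, edgeR adjusted p = 0.0020), and with total-count scaling the value was -0.15 and did not pass. Its paralog RBR2 was at 41.4 ± 2.84 normalized CPM in mutant seeds and 39.0 ± 3.64 in wild type (SD, n = 3 each). These values are higher than those of RBR1 but are not per length. RBR2 did not pass (log2 fold change 0.08, SE 0.13, edgeR adjusted p = 0.66; 1.31 and called higher with total-count scaling). The spindle checkpoint genes MAD2 and BUBR1, which hold cells before anaphase, were 3.86-fold and 6.01-fold higher (edgeR adjusted p = 0.0070 and 0.018). MAD2 and BUBR1 averaged 1.04 and 0.447 normalized CPM in wild type and passed the filter on low counts through the mutant. The fold of BUBR1 thus rests on few wild-type counts. Condensin-2 subunit H2, of a complex that compacts chromosomes, was 2.31-fold higher (edgeR adjusted p = 0.0061).

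Of 32 DNA replication genes, 17 rose, none fell and 15 did not pass, against 15.8% called higher and 15.4% lower over all features, with a median log2 fold change of 1.02. PCNA, the sliding clamp of DNA polymerase, averaged 24.5 ± 2.71 in mutant seeds, in normalized CPM, and 8.20 ± 0.618 in wild type (SD, n = 3 each), 2.99-fold higher (edgeR adjusted p = 0.00046). The helicase subunits MCM2 and MCM7 were 6.40-fold and 13.0-fold higher (edgeR adjusted p = 0.00061 and 0.00072), and the catalytic subunit of DNA polymerase alpha was 4.26-fold higher (edgeR adjusted p = 0.00074). MCM7 was at 10.8, 7.10 and 4.84 in mutant seeds, against 0.487, 0.486 and 0.753 in wild-type seeds, so that, as for CDKB2-1, library 1 was the highest of the mutant and the groups did not overlap. Like other genes of this list that were low in wild type, MCM7 passed the filter on low counts through the mutant. The counts of calls in this list and among the other regulators are therefore descriptions.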

How the data were processed

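RNA-seq libraries of 3 NIL-gaf1 (mutant) and 3 NIL-GAF1 (wild type) seed samples were grouped by the genotype label. The authors deposited 1 table with whole-number counts and FPKM per feature and library, per the file headers. The submitters' processing notes list Bowtie 0.12.2. How reads were counted, on which build and annotation and with what strand setting is not given in the sources used here. Libraries of a line were not copies of each other: comparing their counts gave a chi-square per gene of 10.2 to 341.

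Counts were fitted over the whole table with edgeR 4.0.16 in R 4.3.3 (filterByExpr, 22937 features, TMM, glmQLFit, glmQLFTest, with line as the sole term), with Benjamini-Hochberg adjusted p under 0.05. Standard errors are the absolute log2 fold change over the square root of F. TMM factors ran from 1.16 to 1.88 in the mutant and 0.627 to 0.715 in wild type. TMM-scaled FPKM is the deposited FPKM divided by this factor. On simulated data, 77.6% of genes changed 4-fold (2 on the log2 scale) and 11.4% of those changed 2-fold (1 on the log2 scale) were called, with 8 false calls among 22580 genes. Only 107 and 88 genes were changed there, whereas 31.2% of features were called in the data. With so few changed genes the adjustment is stricter, so these shares do not give the power in the data.

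Members and lists were chosen with earlier results of these data known. Values in every library were given for members called and for the most abundant member of each class per length, and from the lists of other cell cycle regulators and DNA replication genes the 4 genes of each with the smallest adjusted p were named. RBR2 was named in addition, as the paralog of RBR1. The within-library ratio and the listing of further values were added after the data were examined. Promoter and protein sequences were not analysed here. Alternatives used DESeq2 1.42.0 and limma 3.58.1, and other values Python 3.11.15 with pandas 2.3.3.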

Additional observations from a re-analysis of the deposited data

How the results depend on the processing

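The 9 members called higher were called higher with every scaling, with the replicate block, without a low-count filter, with the DESeq2 Wald test, limma-voom and limma on FPKM. With a mean of at least 5 CPM 3 of them were no longer tested (6 higher), and at an adjusted p under 0.01 there were 7 higher and 6 lower. With one library left out 8 to 10 were higher and 7 to 13 lower, 7 without mutant library 2. All features called higher ranged from 2003 to 4040 and lower from 2009 to 4288, lowest without mutant library 2 and 2216 and 2341 without wild-type library 1; DNA replication genes called lower were 0 to 1 and other cyclins had medians of -0.27 to -0.18 and inhibitors of -0.88 to -0.69. At an adjusted p under 0.01, 1605 features were higher and 1759 lower. No paired design was assumed: deviations of same-numbered libraries correlated at 0.07, -0.04 and -0.03, and mutant library 1 alone correlated best with its own number. The replicate block gave 9 members higher and 8 lower, the calls of CDKC-2, CDKE-1 and CDKF-3 being lost, and 3001 features higher and 3047 lower. With total-count scaling 28 members were higher and 1 lower, 13 and 0 of the other regulators, 31 DNA replication genes higher, and 16481 and 863 of all features. After removal of storage features these were 15 and 4 members, 11 regulators and 28 replication genes higher, and 10108 and 1602 features. Limma on log2(FPKM + 1) gave 26 and 1 members, 12 and 0 regulators, 29 replication genes, and 14576 and 868 features, and with a pseudocount of 0.1 26 and 1, 12 and 0, 29, and 14614 and 869. The mean of at least 5 CPM left 1 regulator higher. Median log2 fold changes with total-count scaling were 2.79 (A-type), 3.51 (B-type), 3.52 (CDKB), 1.96 (D-type), 0.71 (P-type), 0.73 (T-type), 0.40 (inhibitors), 0.70 (other CDKs) and 0.99 (other cyclins). After removal of storage features B-type was 2.86, CDKB 2.89, D-type 1.36, P-type 0.10, T-type 0.13, inhibitors -0.21, other CDKs 0.10 and other cyclins 0.39. On log2(FPKM + 1) CDKB was 2.90, D-type 1.69, P-type 0.36, T-type 0.69, inhibitors 0.30, other CDKs 0.63 and other cyclins 1.03, and on log2(FPKM + 0.1) B-type was 3.13, CDKB 3.34, D-type 1.98, P-type 0.65, T-type 0.71, inhibitors 0.36, other CDKs 0.65 and other cyclins 1.09. Without a filter T-type was -0.31, inhibitors -0.67, other CDKs -0.37 and other cyclins -0.066, and with at least 5 CPM P-type was -6.45, inhibitors -0.93 and other cyclins -0.045. The median of all features was 1.27 with total counts and 0.67 after removal of storage features, against 0.06 with TMM. The cause of the other changes was not tested. Log2 fold changes that changed sign follow. With total-count scaling they were CYCD4-2 0.97, CYCD5-2 1.19, CYCP1-1 0.71, CYCT1-1 0.29, CYCT1-2 0.90, CYCT1-4 0.73, KRP1 1.08, KRP4 0.90, KRP5 0.55, KRP6 0.26, SMR1 0.16, CDKC-1 1.04, CDKC-2 0.65, CDKE-1 0.80, CDKF-1 0.82, CDKF-3 0.66, CDKF-4 0.58, CDKG-1 0.74, CDKG-2 0.20, CYCH1-1 0.86 and CYCL1-1 1.13. After removal of storage features they were CYCD4-2 0.32, CYCD5-2 0.57, CYCP1-1 0.10, CYCT1-2 0.30, CYCT1-4 0.13, KRP1 0.45, KRP4 0.31, CDKC-1 0.43, CDKC-2 0.055, CDKE-1 0.20, CDKF-1 0.22, CDKF-3 0.068, CDKG-1 0.12, CYCH1-1 0.26 and CYCL1-1 0.52. Without a filter they were CYCD5-2 0.082 and CYCL1-1 0.058. On log2(FPKM + 1) they were CYCP1-1 0.36, CYCT1-1 0.27, CYCT1-2 0.75, CYCT1-4 0.69, KRP1 0.91, KRP4 0.76, KRP5 0.42, KRP6 0.18, SMR1 0.12, CDKC-1 0.91, CDKC-2 0.62, CDKE-1 0.75, CDKF-1 0.76, CDKF-3 0.63, CDKF-4 0.53, CDKG-1 0.62, CDKG-2 0.18, CYCH1-1 0.72 and CYCL1-1 1.03. On log2(FPKM + 0.1) they were CYCP1-1 0.65, CYCT1-1 0.28, CYCT1-2 0.86, CYCT1-4 0.71, KRP1 0.97, KRP4 0.88, KRP5 0.52, KRP6 0.21, SMR1 0.13, CDKC-1 0.98, CDKC-2 0.63, CDKE-1 0.78, CDKF-1 0.80, CDKF-3 0.65, CDKF-4 0.56, CDKG-1 0.65, CDKG-2 0.19, CYCH1-1 0.83 and CYCL1-1 1.09. With one library left out CYCA3-2 ranged from -0.058 to 0.91 and CKS1 from -0.054 to 0.27 (lowest without mutant library 1), CYCC1-1 from -0.0075 (without mutant library 3) to 0.26, CYCD5-2 from -0.31 to 0.10 (without mutant library 3; 0.089 without wild-type library 1) and CYCD4-2 from -0.64 to 0.043 (without wild-type library 3). Of the members that changed sign, CDKC-2, CDKE-1, CDKF-3 and CDKF-4 had been called lower and were called higher with total-count scaling and on FPKM.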
